A study of Homo sapiens with 6 samples.

Results

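Transforming growth factor beta (TGF-beta) and bone morphogenetic protein (BMP) signalling was followed through 49 genes that encode its ligands, receptors, SMAD proteins, intracellular regulators, latent binding proteins, immediate target genes and extracellular antagonists. The genes were chosen by their known place in the pathway, with earlier results of these data known. Each was found at 1 locus among the 74852 loci of the table, and 47 reached the mean of at least 10 normalized reads over the libraries that was needed for a test, as did 18849 loci in all. BMP2 and BMP7 did not reach it. The loci of TGFB2, SMAD4 and FSTL1 also carry TGFB2-OT1, ELAC1 and MIR198, so that reads of these genes cannot be separated.

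RNA-seq was performed in MDA-MB-231, a triple-negative breast cancer cell line, after silencing of SAM68, an RNA-binding protein and splicing regulator encoded by KHDRBS1. The si-CTRL group (3 libraries) received a pool of non-targeting siRNAs, and the si-SAM68 group (3 libraries) a pool of 4 siRNAs against SAM68. Both groups were transfected in 2 rounds with Lipofectamine RNAiMAX, and by the labels the cells were collected 24 h after the last round. The methods of the study count the harvest from transfection without naming rounds, and give another medium and another RNA kit. Silencing was transient, and no rescue with SAM68 was part of this comparison. The methods describe a harvest in triplicate, but neither they nor the labels state that the 3 libraries of a group came from separate cultures. The p-values therefore measure the spread between these libraries, which may be technical.

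KHDRBS1 had 14960 ± 620 normalized reads in the control libraries and 618 ± 45.8 in the silenced ones (SD, n = 3 each), or 4.13% of the control level. The libraries held 52625492 to 82568487 reads. In si-SAM68 replicate 2, 15.1% of the reads fell on a ribosomal RNA locus, against 1.83% to 3.17% in the other 5 libraries. Markers of this cell line were present, with VIM at 138300 to 173160 normalized reads in all 6 libraries, whereas no library had more than 15.2 for any of ESR1, PGR, CDH1 and EPCAM.

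Members of the TGF-beta family are secreted dimers that bring together type II and type I serine/threonine kinase receptors. TGF-beta and activins act mainly through SMAD2 and SMAD3, BMPs through SMAD1, SMAD5 and SMAD9, and both sets enter the nucleus with SMAD4. In breast cancer cells with a mesenchymal phenotype the pathway is known for its part in epithelial-to-mesenchymal transition, invasion and metastasis.

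Transcripts of 4 ligands, INHBB, BMP6, GDF11 and GDF15, were lower in si-SAM68 cells, and those of the receptors TGFBR3 and ACVR2B were higher. The fifth transcript that fell was LTBP2, which encodes a latent TGF-beta binding protein family member. With limma and Benjamini-Hochberg adjustment over all loci, 7 of the 47 tested members (14.9%) had an adjusted p-value under 0.05, against 10.7% of all loci tested. Of these 7 members, 2 were higher (4.47% of all loci) and 5 were lower (6.23% of all loci). A rule of an unadjusted p-value of at most 0.05 with a fold change of at least 1.5 was met by 2 members, INHBB and BMP6, or 4.26%, against 7.67% of all loci. Both were lower, in which direction 4.83% of all loci met the rule, and no member met it as higher (2.83% of all loci). The median log2 fold change of the members was -0.03, against 0.01 over all loci.

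At an unadjusted p-value under 0.05 stood 21 members (44.7%), against 27% of all loci. Of these, 9 were higher (12.8% of all loci) and 12 were lower (14.1% of all loci). When limma was run without a trend, 13 members stood there, against 24.4% of all loci. Leaving out 1 library gave as few as 12 members (without si-SAM68 replicate 2, 20.4% of all loci). The most were 20, without si-CTRL replicate 1 (29.4% of all loci) or si-SAM68 replicate 1 (23.7%). The 3 libraries of each group did not overlap in 17 members (36.2%), against 33.9% of all loci. Of the 17, 7 were higher (16.6% of all loci) and 10 were lower (17.3% of all loci), and an exact permutation test of 3 libraries against 3 cannot go below p = 0.1. The median level of the tested members was 1391 normalized reads, against 610.1 over all loci tested. None of the 40 members without a call had a fold change of 1.5, and for 31 of them the 95% confidence interval lay within 1.5-fold in either direction. For the other 9, which were TGFB1, TGFB2, TGFB3, ACVR2A, BMPR1B, SKI, ID2, FSTL3 and NOG, the interval did not exclude a change of that size. Since these are bulk libraries, less RNA per cell and fewer cells of one kind cannot be told apart.

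**Figure D1:**
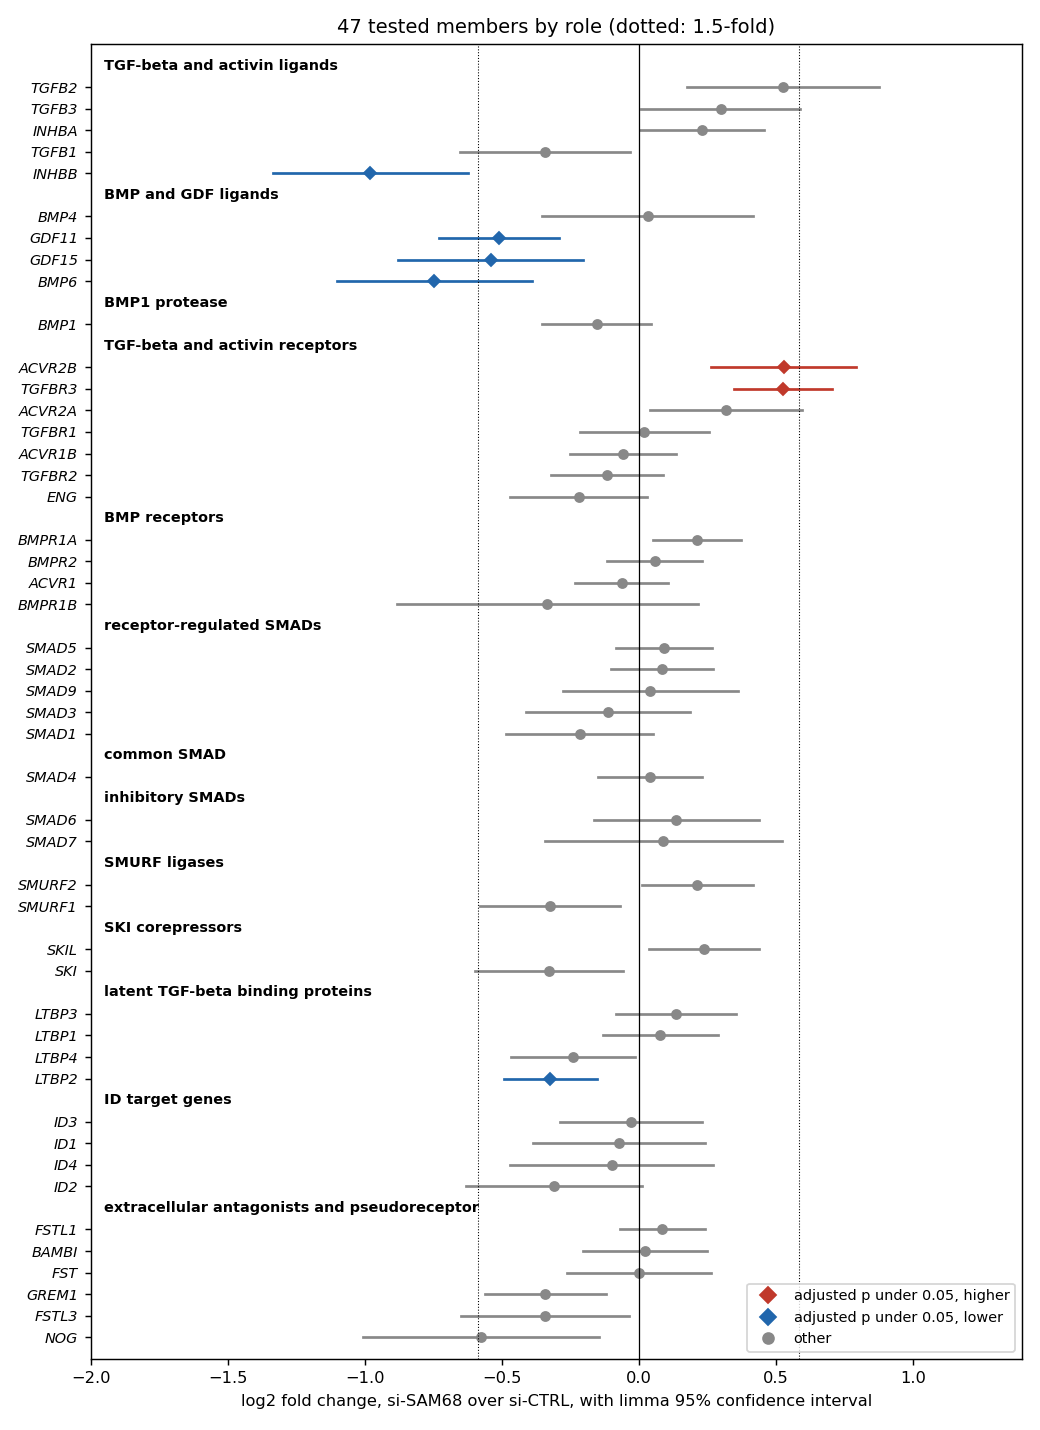
Log2 fold change of si-SAM68 over si-CTRL (x axis, on log2 of normalized reads + 1) for the 47 tested members grouped by role, with 95% confidence intervals from limma (n = 3 libraries a group). Diamonds mark the 7 members with an adjusted p-value under 0.05, 2 higher and 5 lower, and the SMAD proteins lie between -0.22 and 0.14.

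Among the TGF-beta and activin ligands, 1 of 5 tested members was called (20%, against 10.7% of all loci). INHBB encodes the beta B subunit, which forms activin B as a homodimer and inhibin B with the alpha subunit. Its locus (GSHG0016824) lies at chr2:121103719-121109383 on hg19. INHBB had 212, 213 and 285 normalized reads in si-CTRL replicates 1 to 3 and 127, 109 and 121 in the si-SAM68 replicates. Every si-SAM68 library was below every si-CTRL library, with means of 237 ± 41.8 and 119 ± 9.35 (SD, n = 3). On the log2(normalized reads + 1) scale INHBB fell by 0.98 (SE 0.159, limma adjusted p = 0.00572).

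The paralogous subunit INHBA, which forms activin A, was at 2036, 1736 and 1725 normalized reads in si-CTRL and at 1972, 2365 and 2117 in si-SAM68 cells. Its groups overlapped, and its log2 fold change of 0.23 was not called (limma adjusted p = 0.175) except without si-CTRL replicate 1 (adjusted p = 0.032). Inside each library the ratio of INHBA to INHBB reads, which does not depend on library scaling, was 9.58, 8.15 and 6.05 in si-CTRL and 15.5, 21.8 and 17.6 in si-SAM68 cells. This ratio and the other 4 computed were chosen after the values had been seen and are given without a test.

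The 3 TGF-beta isoforms had no call. TGFB1, the isoform with the highest level per kb here, had 4604, 3211 and 3169 normalized reads in si-CTRL and 3079.7, 2859 and 2612 in si-SAM68 cells. Its log2 fold change was -0.34 (limma adjusted p = 0.148), with si-CTRL replicate 1 far above the other libraries, and -0.17 without that library. TGFB2, which binds its signalling receptors poorly without betaglycan, had 116, 125 and 116 normalized reads in si-CTRL and 203, 167 and 149 in si-SAM68 cells. All 3 silenced libraries were above the controls, but the log2 fold change of 0.53 missed the threshold (limma adjusted p = 0.061). TGFB2 passed it with DESeq2 (adjusted p = 0.0459) and with limma after quantile normalization (adjusted p = 0.0433), 2 of the 17 alternatives. TGFB3 was at a log2 fold change of 0.30 (limma adjusted p = 0.172) with overlapping groups. The ratio of TGFB1 to TGFB2 reads was 39.6, 25.7 and 27.3 in the si-CTRL libraries and 15.1, 17.1 and 17.6 in the si-SAM68 libraries, so that the groups did not overlap.

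**Figure D2:**
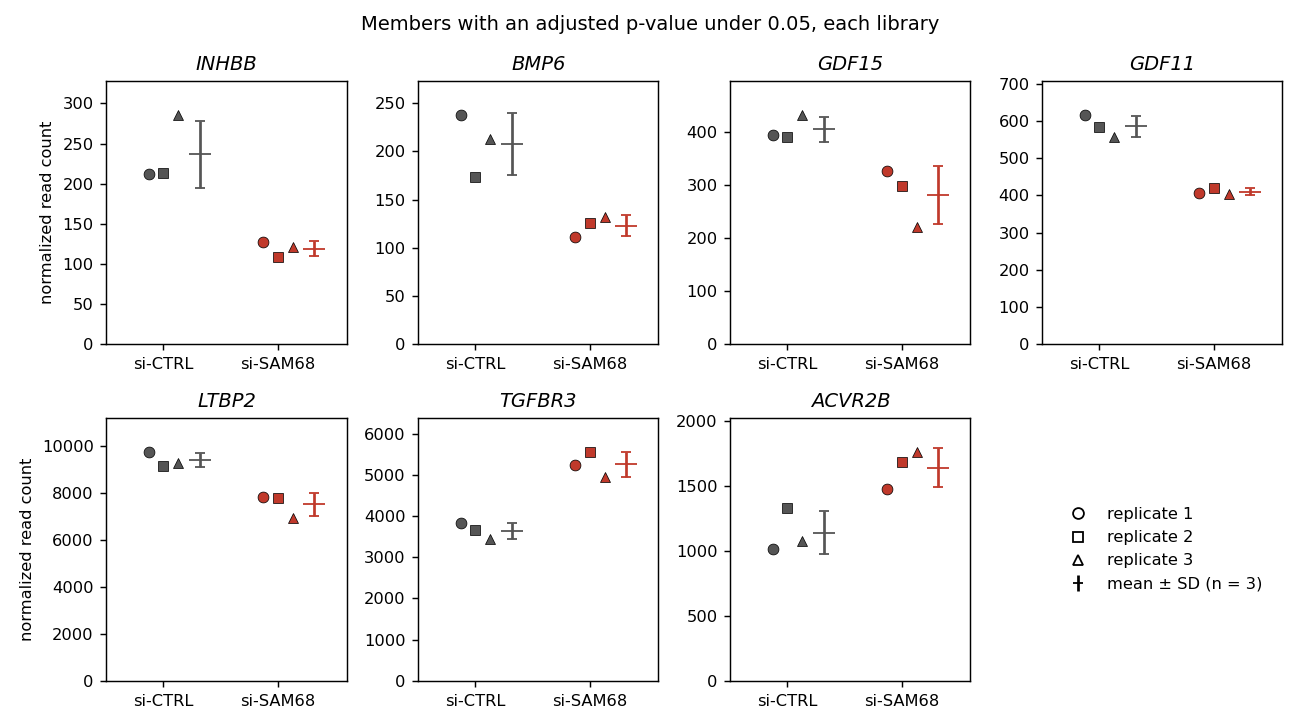
Normalized read counts (y axis, starting at 0) of the 7 members with an adjusted p-value under 0.05 in each of the 3 si-CTRL and 3 si-SAM68 libraries, with the mean and SD beside the points. The groups do not overlap in any panel, and INHBB has the largest fold change of the 7, from 237 to 119 on average.

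Of the 4 tested BMP and GDF ligands, 3 were called lower (6.23% of all loci) and none higher (4.47% of all loci). The group is small, and GDF15, 1 of the 3, was called in 5 of 17 alternatives. BMP6, a BMP ligand known for bone formation and for hepatic iron sensing, lies at chr6:7726332-7881961 on hg19 (GSHG0025409). It had 237, 173 and 213 normalized reads in si-CTRL and 111, 126 and 132 in si-SAM68 cells. The lowest control stood above the highest silenced library, and BMP6 fell by 0.75 on the log2 scale (SE 0.159, limma adjusted p = 0.0181). The call was lost when si-CTRL replicate 3 was left out (adjusted p = 0.057) or when any si-SAM68 library was left out (adjusted p = 0.0548 to 0.0696), with a log2 fold change of -0.80 to -0.67. The BMP6 locus overlaps a joined locus of TXNDC5, BLOC1S5 and EEF1E1 whose mean went from 71898 normalized reads in the controls to 61416, at a log2 fold change of -0.22 (limma adjusted p = 0.138). Whether strand was used in counting is not given in the sources used here, and the part of these reads in the BMP6 values was not tested.

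GDF11, a growth factor close to myostatin that signals through activin receptors and SMAD2 and SMAD3, lies at chr12:56137064-56150911 (GSHG0033828). It had 615, 584 and 557 normalized reads in si-CTRL and 407, 420.4 and 403 in si-SAM68 cells. The libraries of each group lay close together, and GDF11 fell by 0.51 (SE 0.0978, limma adjusted p = 0.0117). Its call was lost only without si-SAM68 replicate 3, at an adjusted p of 0.0596. The overlapping locus of DNAJC14 and SARNP had a log2 fold change of 0.03 (limma adjusted p = 0.848).

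GDF15, a divergent family member that acts as a stress-induced hormone through the receptor GFRAL, lies at chr19:18496968-18499987 (GSHG0014711). It had 394, 390.3 and 432 normalized reads in si-CTRL and 326, 298 and 221 in si-SAM68 cells. GDF15 fell by 0.54 (SE 0.151) and passed the threshold narrowly, with a limma adjusted p of 0.0493. With the replicate number as a block the adjusted p was 0.0734, and it was 0.0516 to 0.0594 under both other scalings of the libraries. It was called without si-CTRL replicate 1 and lost without any 1 of the other 5 libraries (adjusted p = 0.0551 to 0.153).

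BMP4 was at a log2 fold change of 0.03 (limma adjusted p = 0.928), with overlapping groups. BMP2 had 5.7 to 11.6 normalized reads in the 6 libraries. BMP7 was at 0 in every library except si-CTRL replicate 3, where it had 3.8. BMP1, which despite its name is a metalloprotease that cleaves procollagen and chordin, was at a log2 fold change of -0.15 (limma adjusted p = 0.302).

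The promoters of INHBB and BMP6 are shown because these are the members with the largest fold changes. The sequences are the 250 bases before the start of each gene in RefSeq (GRCh38.p14, plus strand), at chr2:120345886-120346135 for INHBB and chr6:7725849-7726098 for BMP6. Capitals mark any GGCGCC, a GC-rich SMAD element that reads the same on both strands, and any SMAD box, CAGAC or its reverse complement GTCTG.
INHBB: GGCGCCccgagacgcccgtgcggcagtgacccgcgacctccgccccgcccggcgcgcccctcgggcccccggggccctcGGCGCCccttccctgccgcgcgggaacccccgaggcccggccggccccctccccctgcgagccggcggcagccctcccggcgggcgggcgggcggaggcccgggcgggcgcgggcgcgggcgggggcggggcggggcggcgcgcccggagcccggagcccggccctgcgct
BMP6: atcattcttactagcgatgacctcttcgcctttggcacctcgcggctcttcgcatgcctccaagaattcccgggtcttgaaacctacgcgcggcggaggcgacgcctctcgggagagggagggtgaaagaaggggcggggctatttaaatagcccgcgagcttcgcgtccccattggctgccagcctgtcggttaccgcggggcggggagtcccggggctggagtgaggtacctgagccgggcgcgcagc
The INHBB window is 89.6% G and C and holds 2 GGCGCC matches and no SMAD box, and the BMP6 window is 64.4% G and C and holds neither. GGCGCC occurred in 14 of the 44 members with a promoter in the RefSeq table (31.8%), against 16.4% of 35116 promoters, and among the 7 called members in INHBB and LTBP2. The SMAD box occurred in 16 of the 44 (36.4%), against 38% of all promoters, and among the called members in GDF15. The cAMP response element TGACGTCA was present in 2 of the 44 (1.65% of all promoters) and the AP-1 element, TGACTCA or TGAGTCA, in 1 (4.2% of all promoters), and in none of the called members. A single window was counted for each member, whereas the 35116 are all promoters listed. The G and C content of the members' windows and of all windows was not compared. These matches describe the letters of the windows, and binding was not measured.

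Among the 11 receptors, 2 were called higher (4.47% of all loci) and none lower (6.23% of all loci). TGFBR3 encodes betaglycan, a co-receptor without kinase activity that presents TGF-beta to TGFBR2 and binds inhibins, at chr1:92145900-92371559 on hg19 (GSHG0002258). It had 3824, 3661 and 3445 normalized reads in si-CTRL and 5246, 5551 and 4951 in si-SAM68 cells. All 3 silenced libraries were above the controls, with a mean of 5249 ± 299.9 against 3644 ± 190.2 (SD, n = 3). TGFBR3 was higher by 0.53 on the log2 scale (SE 0.0795, limma adjusted p = 0.00394).

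ACVR2B, a type II receptor of activins, GDF11 and myostatin, lies at chr3:38495790-38534610 (GSHG0020706). It had 1012, 1331 and 1079.9 normalized reads in si-CTRL and 1474, 1686 and 1762 in si-SAM68 cells. The groups did not overlap, with si-CTRL replicate 2 nearest to the silenced libraries, and the log2 fold change was 0.53 (SE 0.119, limma adjusted p = 0.0219). Without si-CTRL replicate 3, si-SAM68 replicate 2 or si-SAM68 replicate 3 the adjusted p was 0.0658, 0.0846 and 0.11. The overlapping antisense locus ACVR2B-AS1 had means of 76.3 normalized reads in the controls and 70.5 after silencing. The paralogous receptor ACVR2A had a log2 fold change of 0.32 with groups that did not overlap (limma adjusted p = 0.136, and 0.0378 without si-CTRL replicate 1), and the ratio of ACVR2B to ACVR2A reads overlapped between the groups.

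The kinase receptors that TGF-beta itself uses had no call. TGFBR1, the type I receptor, was at a log2 fold change of 0.02 (95% confidence interval -0.22 to 0.25), and TGFBR2, the type II receptor, at -0.12 (-0.32 to 0.09). Both intervals exclude a 1.5-fold change in either direction. The ratio of TGFBR3 to TGFBR2 reads was 0.399, 0.445 and 0.387 in si-CTRL and 0.699, 0.614 and 0.608 in si-SAM68 cells, again without overlap. ACVR1B, the type I activin receptor, was at -0.06 (limma adjusted p = 0.715).

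ENG, which encodes the co-receptor endoglin, was at a log2 fold change of -0.22 (limma adjusted p = 0.241). Endoglin is best known from endothelial cells, and the 6 endothelial markers PECAM1, VWF, CDH5, KDR, TEK and CLDN5 together had 49.4 to 76.2 normalized reads in si-CTRL and 31.3 to 35.7 in si-SAM68 cells, with KDR and TEK at 0 in every library. ENG itself had 6022 to 9056. The groups overlapped for ENG, and the part of endothelial transcripts in its value was not tested.

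None of the 4 BMP receptors was called by limma, edgeR or DESeq2. In limma 1 had an unadjusted p-value under 0.05 (25%, against 27% of all loci). This was BMPR1A, the type I receptor also known as ALK3, with 2401, 2353 and 2353 normalized reads in si-CTRL and 2754, 2786 and 2691 in si-SAM68 cells. The libraries within a group lay close together and the groups did not overlap, while the log2 fold change was 0.21 (limma adjusted p = 0.0921, and 0.0424 without si-CTRL replicate 1). The type I receptor ACVR1 and the type II receptor BMPR2 were at -0.06 and 0.06. BMPR1B, at 36.8 to 62.5 normalized reads, was at -0.33 with an interval of -0.88 to 0.22.

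**Figure D3:**
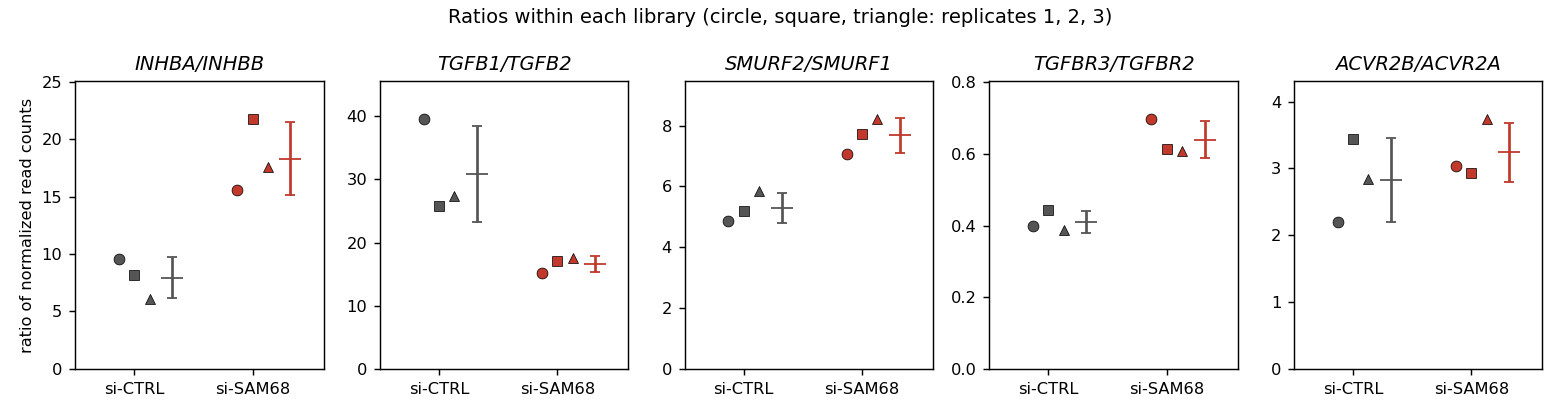
Ratios of normalized read counts between 2 related members inside each library (y axis, starting at 0), with the mean and SD of 3 libraries beside the points. The groups overlap for ACVR2B to ACVR2A and not for the other 4 pairs, and INHBA to INHBB goes from 6.05 to 9.58 in si-CTRL to 15.5 to 21.8 in si-SAM68 libraries.

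None of the 8 SMAD genes was called, and their log2 fold changes lay between -0.22 and 0.14 (limma adjusted p = 0.282 to 0.884). No SMAD gene had an unadjusted p-value under 0.05, and edgeR and DESeq2 also called none. All 8 confidence intervals stayed within 1.5-fold, from -0.48 at their lowest to 0.52 at their highest. SMAD2 and SMAD3, the effectors of TGF-beta and activin, were at 0.08 and -0.11. SMAD1, SMAD5 and SMAD9, the effectors of BMPs, were at -0.22, 0.09 and 0.04, and the shared partner SMAD4 was at 0.04. The inhibitory SMAD6 and SMAD7, which are induced by the pathway and feed back on its receptors, were at 0.14 and 0.09.

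The SMURF ubiquitin ligases and the SKI corepressors, both of which limit SMAD activity, each held a pair of paralogs with opposite signs that did not pass limma's adjusted threshold. SMURF1 had a log2 fold change of -0.32 (limma adjusted p = 0.103) and SMURF2 of 0.21 (limma adjusted p = 0.163). DESeq2 called SMURF1 (adjusted p = 0.0434), and limma called SMURF2 without si-CTRL replicate 1 (adjusted p = 0.0171). SMURF1 had 4226, 3315 and 3048 normalized reads in si-CTRL and 2795, 2861 and 2731 in si-SAM68 cells, and 3 loci without a gene symbol overlap it. The ratio of SMURF2 to SMURF1 reads was 4.87, 5.19 and 5.84 in si-CTRL and 7.07, 7.73 and 8.23 in si-SAM68 libraries, with no overlap. SKI was at -0.33 (limma adjusted p = 0.116) and SKIL, which encodes SnoN, at 0.24 (limma adjusted p = 0.126). SKI was called without si-CTRL replicate 2 (limma adjusted p = 0.0337) and SKIL without si-CTRL replicate 1 (limma adjusted p = 0.0363). The 3 libraries of each group did not overlap for SKI or for SKIL.

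Latent TGF-beta binding proteins tether TGF-beta to the extracellular matrix, and 1 of 4 was called (25%, against 10.7% of all loci). LTBP2, at chr14:74964887-75079034 (GSHG0009490), is the member of this family that does not bind latent TGF-beta. It had 9756, 9183 and 9300.3 normalized reads in si-CTRL and 7844, 7798 and 6965 in si-SAM68 cells. The groups were well apart although the change was small, and LTBP2 fell by 0.32 (SE 0.0766, limma adjusted p = 0.0272). The call was lost without any 1 library other than si-CTRL replicate 1 (adjusted p = 0.0553 to 0.114). LTBP1, LTBP3 and LTBP4, which can bind latent TGF-beta, were at 0.08, 0.13 and -0.24 without a call. LTBP3 overlaps other loci, and the part of their reads in its value was not tested.

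The ID genes encode inhibitors of bHLH transcription factors and are early transcriptional targets of BMP receptors. None of ID1, ID2, ID3 and ID4 was called by limma, edgeR or DESeq2, and none had an unadjusted p-value under 0.05. Their log2 fold changes were -0.07, -0.31, -0.03 and -0.10, all below 0, but without si-CTRL replicate 3 those of ID1, ID3 and ID4 were 0.10, 0.09 and 0.01. ID1 had 1690, 1841 and 2518 normalized reads in si-CTRL and 1961, 1711 and 2006 in si-SAM68 cells, and the silenced libraries lay inside the range of the controls.

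The extracellular antagonists and the pseudoreceptor BAMBI also had no call among 6 genes. In limma 3 had an unadjusted p-value under 0.05 (50%, against 27% of all loci). By edgeR none was called, and by DESeq2 GREM1 and NOG were. GREM1, which encodes the BMP antagonist gremlin 1, had 35150, 32503 and 38281 normalized reads in si-CTRL and 24419, 29266 and 30079 in si-SAM68 cells. All 3 silenced libraries were below the controls, and the log2 fold change of -0.34 just missed the threshold (limma adjusted p = 0.0554). It was also called by limma without si-CTRL replicate 1 (adjusted p = 0.0358), after quantile normalization (0.0312) and at a minimum mean of 50 (0.0457). NOG, which encodes the BMP antagonist noggin, was at -0.58 (limma adjusted p = 0.0886, and 0.0187 without si-CTRL replicate 2) with 399, 289.6 and 511 normalized reads in si-CTRL and 239.8, 247 and 299 in si-SAM68 cells. FSTL3, an activin-binding follistatin relative, was at -0.34 (limma adjusted p = 0.141). Follistatin itself (FST) was at 0.00 with an interval of -0.26 to 0.26, FSTL1 at 0.09 and BAMBI at 0.02.

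Levels could be compared between genes only per length, for which the mean normalized read count in si-CTRL cells was divided by the median length of the protein-coding transcripts in GENCODE v29. Per kb, SMURF2 had 6348 ± 616 (SD, n = 3) and GREM1 13335 ± 1092, but GREM1 had 2418 when its longest transcript was used. TGFBR2 had 1931 ± 148 and TGFB1 1322 ± 295, against 23.8 ± 1.02 for TGFB2. The called ligands INHBB, BMP6 and GDF11 had 73.9 ± 13.1, 74.8 ± 11.6 and 67.6 ± 3.34 per kb, and these 3 did not differ beyond their spread. GDF15 stood higher at 338 ± 19.1. Among the receptors, TGFBR3 had 860 ± 44.9 (564 with its longest transcript) and ACVR2B 96.5 ± 14.2. Of all 49 members, BMP2 and BMP7 were the lowest with either length.

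**Figure D4:**
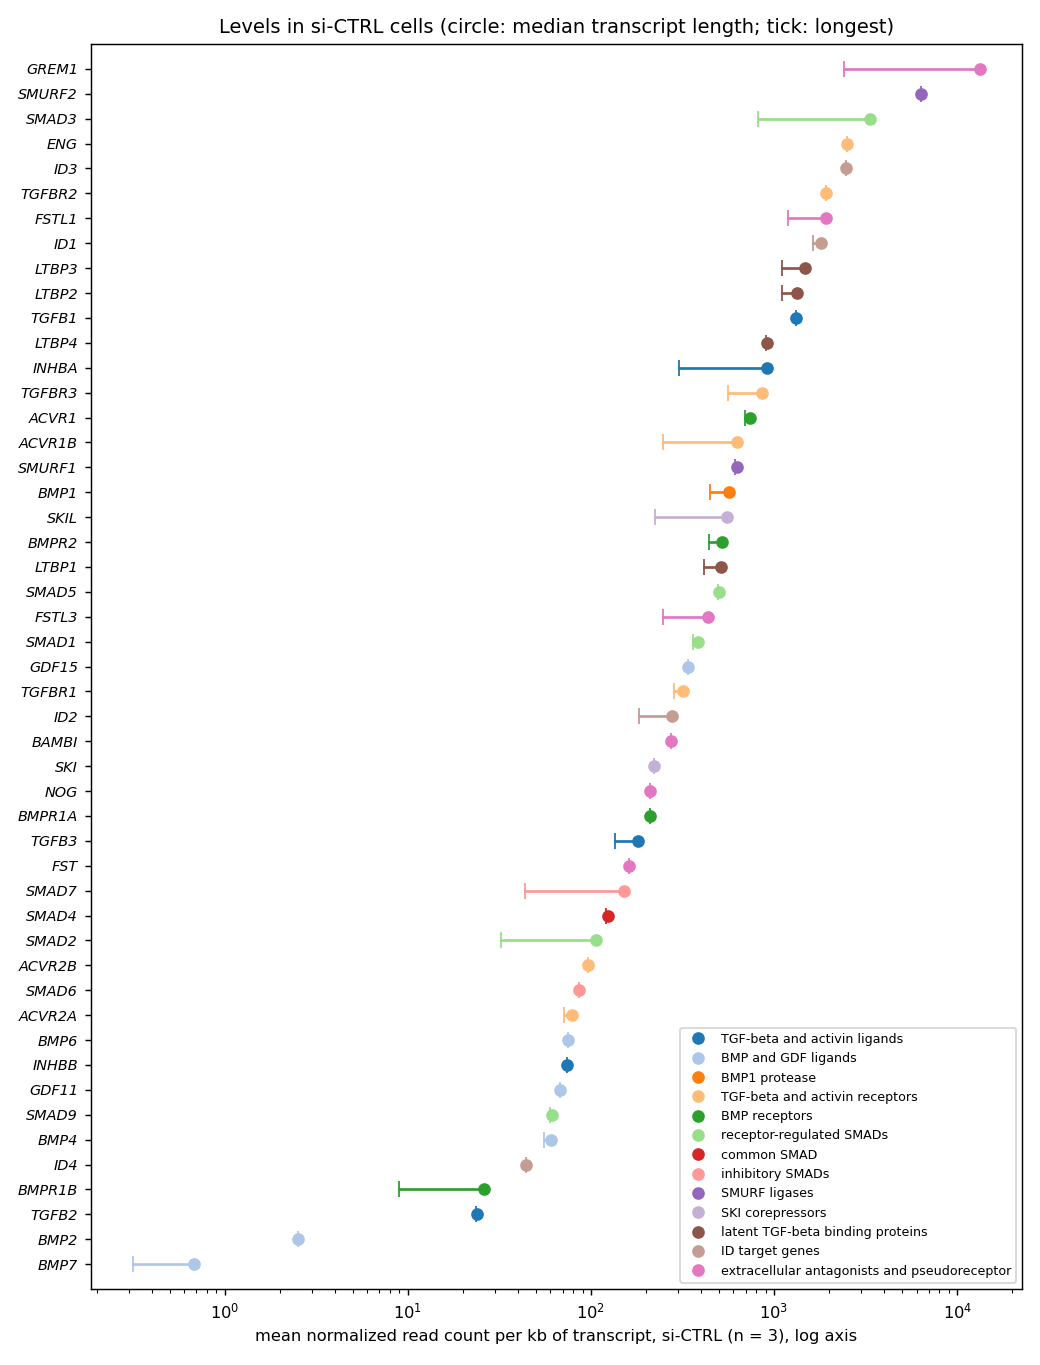
Mean normalized read count per kb of transcript in the 3 si-CTRL libraries (x axis, log scale) for each of the 49 members, coloured by role. Circles use the median transcript length and ticks the longest transcript, between which GREM1 moves from 13335 to 2418 per kb, and INHBB, BMP6 and GDF11 lie between 67.6 and 74.8 per kb.

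The 4 siRNAs against SAM68 are shown because their guide strands could also pair with other transcripts through a seed of 7 bases (guide positions 2 to 8). They are the sense strands as the study lists them, 5′ to 3′, with the bases that equal a seed match in capitals.
siSAM68_1: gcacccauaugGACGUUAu
siSAM68_2: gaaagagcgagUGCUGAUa
siSAM68_3: uaugauggaugAUAUCUGu
siSAM68_4: aaagaucucugUAUUGGGa
At least 1 of the 4 matches was present in the longest 3′UTR of 18 of the 47 tested members (38.3%), against 29.7% of 11968 tested genes with a 3′UTR in GENCODE v29. The median 3′UTR was 2543 bases in the members and 1361.5 bases in all these genes. The median log2 fold change was 0.07 in members with a match and -0.10 in members without one, and -0.01 in both sets over all genes.

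Among the called members, both that rose and 2 of the 5 that fell held a match. Their sites on GRCh38 are given with 10 bases on each side, read along the transcript, and capitals mark the match.
GDF15 with siSAM68_4, chr19:18389070-18389096, plus strand: attattaattTATTGGGgtgaccttct
LTBP2 with siSAM68_2, chr14:74499639-74499665, minus strand: tggccagctcTGCTGATagcctatgat
TGFBR3 with siSAM68_2, chr1:91683072-91683098, minus strand: ccaaaaccaaTGCTGATgaccttatca
TGFBR3 with siSAM68_3, chr1:91683284-91683310, minus strand: aagattctttATATCTGaaccaagatg
ACVR2B with siSAM68_2, chr3:38492700-38492726, plus strand: ttgaaaagtgTGCTGATttatatatat
ACVR2B with siSAM68_3, chr3:38486320-38486346, plus strand: atcaggtggtATATCTGgttctgatgg
ACVR2B with siSAM68_4, chr3:38489710-38489736, plus strand: taggggtgccTATTGGGgtgggatggg
INHBB, BMP6 and GDF11 held no match in their longest 3′UTR. Each of these sites lies within a single exon, and pairing was not measured.

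Genes outside the 49 were read from lists of the same pathway. Of 36 genes known to be raised by TGF-beta in other settings, 35 were tested, and 10 had a limma adjusted p-value under 0.05 (28.6%, against 10.7% of all loci), 2 higher (4.47% of all loci) and 8 lower (6.23% of all loci). With the replicate number as a block 6 of these genes were called, as were 9% of all loci. The median log2 fold change of the list was -0.02, against 0.01 over all loci. Its median level was 2123 normalized reads, against 610.1 over all loci tested. With a minimum mean of 50, 10 of these genes were called, as were 14.4% of all loci. NEDD9, a scaffold protein of focal adhesions, rose from 75.6 ± 29.1 to 187 ± 31.7 normalized reads, a log2 fold change of 1.36 (limma adjusted p = 0.0129). Its call was lost when limma was run without a trend, and without si-SAM68 replicate 1 or 3. DACT1, which encodes a regulator of WNT signalling, rose by 0.44, a call lost under the block.

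Of the 8 that were lower, the 6 with the smallest adjusted p-values were IL11, CDKN1A, SPHK1, HMGA2, VEGFA and PMEPA1. IL11, a cytokine known for its part in bone metastasis, fell from 1308 ± 269 to 457 ± 50.3 normalized reads (SD, n = 3), a log2 fold change of -1.50 (limma adjusted p = 0.000652). CDKN1A, which encodes the cyclin-dependent kinase inhibitor p21, fell by 0.72. The chromatin protein gene HMGA2 fell by 0.80, VEGFA, which encodes an angiogenic growth factor, by 0.57 and the sphingosine kinase gene SPHK1 by 0.48. PMEPA1, whose product limits TGF-beta signalling, fell by 0.30, but was not called under the block. CTGF and TGFBI, which are widely used as readouts of TGF-beta and were chosen after their values had been seen, were at 0.10 and 0.01.

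Of 15 genes known to be raised by BMPs, 11 were tested and none was called by limma or edgeR, while 3 (27.3%) had an unadjusted p-value under 0.05 in limma, the same share as the 27% of all loci. These were MSX1, JUNB and GATA2, with lower values in si-SAM68 cells, and DESeq2 called 1, MSX1. Of 84 further components of the pathway, 59 were tested and 10 were called (16.9%, against 10.7% of all loci). Of the 10, 4 were higher (4.47% of all loci) and 6 lower (6.23% of all loci). The 59 had a median log2 fold change of 0.01 and a median level of 2333 normalized reads, against 610.1 over all loci tested. Higher were CD109 (0.58), a co-receptor that limits TGF-beta signalling, the ubiquitin ligase NEDD4L (0.48), the deubiquitinase USP9X (0.40) and the phosphatase PPM1A (0.27). Under the replicate block PPM1A was not called, and ITGB8, an integrin subunit gene at 0.75, was. Lower were BMPER (-1.02) and CHRD (-0.89), which encode extracellular BMP-binding proteins, FURIN (-0.86), the protease that processes TGF-beta precursors, the BMP co-receptor gene RGMB (-0.78) and TGFBRAP1 (-0.43). The sixth was the joined locus of CERS1 and GDF1 (-0.66), in which both genes share their reads.

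FURIN had 6257, 4953 and 5276 normalized reads in si-CTRL and 3094, 3106 and 2859 in si-SAM68 cells (limma adjusted p = 0.00101). CHRD had 337, 341 and 314 normalized reads in si-CTRL and 179, 175 and 181 in si-SAM68 cells (limma adjusted p = 0.00186). For both genes every silenced library was well below every control library.

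**Figure D5:**
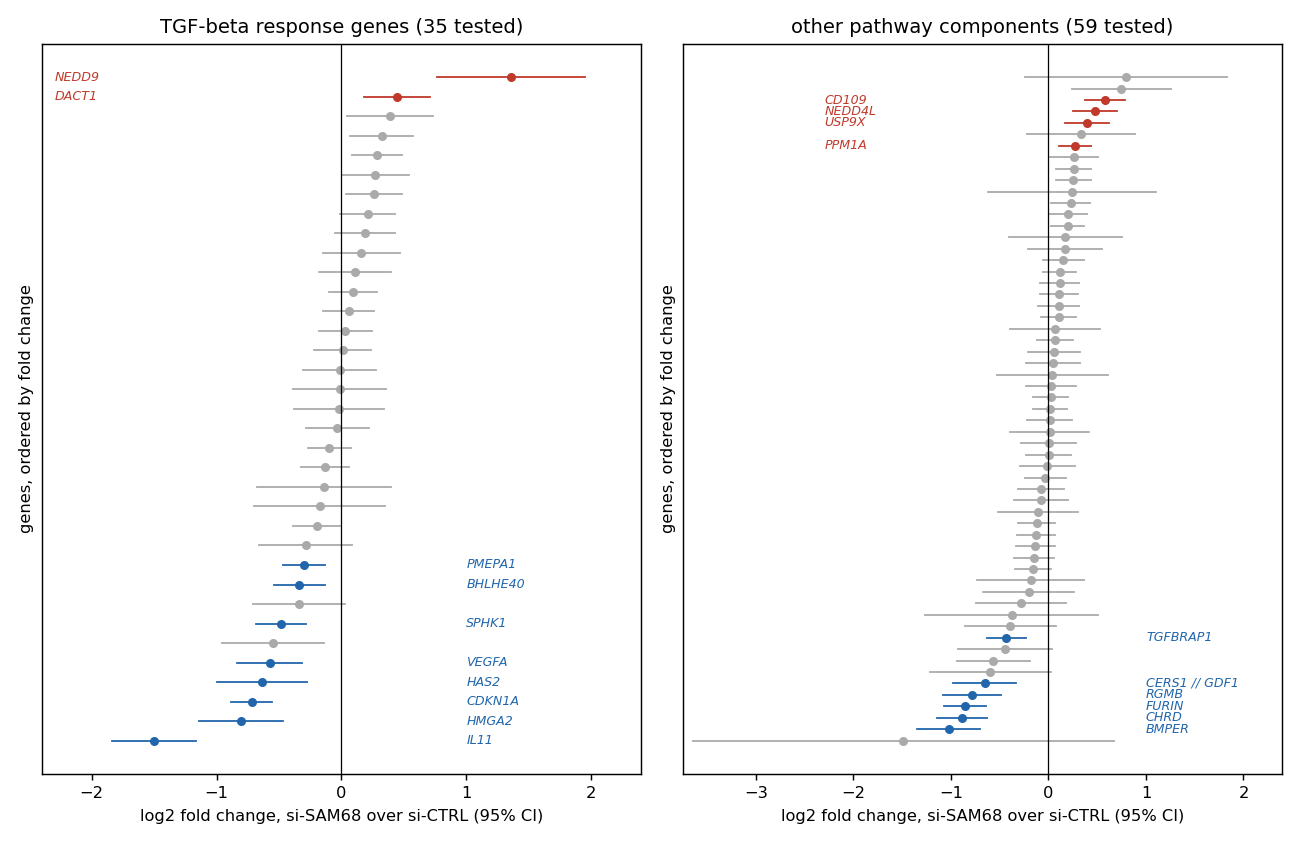
Log2 fold change of si-SAM68 over si-CTRL (x axis, with limma 95% confidence intervals) for 35 TGF-beta response genes and 59 other pathway components, ordered by value. Coloured genes had an adjusted p-value under 0.05, 2 higher and 8 lower on the left and 4 higher and 6 lower on the right.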

How the data were processed

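RNA of MDA-MB-231 cells (si-CTRL and si-SAM68, 3 libraries each) was selected for poly(A) and sequenced. The authors deposited 1 table of signal values, which are read counts per locus of FAST DB (hg19) divided by DESeq2 size factors. The submitters' processing notes name STAR 2.4.0, SAMtools, Picard, FastQC and DESeq2. Strand use in counting is not given in the sources used here. Dividing by each library's smallest step gave whole reads for 100% of the values (within 0.01 read), which gave the depth. Reads were PCR products without molecular identifiers.

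limma 3.58.1 (R 4.3.3; lmFit, eBayes with a trend) was fitted to log2(normalized read count + 1). Only the 18849 loci whose mean reached 10 entered, with Benjamini-Hochberg adjustment over all of them. Fold changes of low genes are understated on this scale. The code was tested on simulated data. Alternatives were pseudocounts of 0.1 and 5, no filter, a minimum mean of 50, TMM and quantile scaling, no trend, a replicate block, each library left out, and edgeR 4.0.16 (with and without the block) and DESeq2 1.42.0 on recovered reads.

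Groups and replicate numbers come from the sample labels. Deviations from the group mean correlated at 0.105, 0.231 and 0.125 between libraries of the same number and at -0.125 to 0.00687 between different numbers. By a limit of 0.1 the numbers pair the libraries, with 0.105 only just above it. The main limma fit has no term for the number, and the replicate block was run as an alternative. The pairing comes from the data, since the labels do not say what a number marks.

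The members and lists were chosen with earlier results of these data known. Values in every library are given for called members, others by role, and from the other lists up to 6 genes in each direction with an adjusted p-value under 0.05, smallest first. Others named were chosen after their values were seen. Of the markers, the 5 leukocyte genes with a locus of their own summed to 98.8 to 124.5 normalized reads in si-CTRL and 69.3 to 81.9 in si-SAM68. Most of this was CSF1R, at 79.4 to 110.3 in si-CTRL and 62.6 to 68.5 in si-SAM68. PTPRC had at most 13.6 and MS4A1 was at 0. Of 9 fibroblast markers 7 were tested and 1, THY1, was called (lower). The 7 with a locus of their own summed to 151040 to 186890 in si-CTRL and 141770 to 179990 in si-SAM68, nearly all of it COL1A1. Over all libraries THY1 had 2567 to 4962 normalized reads, PDGFRB 592 to 776, FAP 172 to 281.5 and COL1A2 32.5 to 54.4. LUM and DCN had at most 4.47. Of 6 cell line markers 1, ZEB1, was called (lower).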

Additional observations from a re-analysis of the deposited data

How the results depend on the processing

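No member reversed its direction among the 7 called, under any of 17 alternatives. INHBB (log2 fold change -1.05 to -0.84) and TGFBR3 (0.49 to 0.57) were called in all 17, GDF11 in 16, BMP6 and ACVR2B in 13, LTBP2 in 11 and GDF15 in 5. Without a trend, limma called 899 loci (4.77%), 4 members (8.51%), 2 TGF-beta response genes and 6 other pathway components. DESeq2 called 11 members (23.4%, against 14.8% of all loci) and 1 BMP response gene. The replicate block left 6 TGF-beta response genes and 6 members (12.8%, against 9% of all loci). GDF15 was lost, and no other member's call changed. The cause of these shifts was not tested.

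Leaving out 1 library gave 625 (without si-SAM68 replicate 3) to 2839 (without si-CTRL replicate 1) loci called and 2 to 13 members under the same omissions. The 13 were 27.7% of the members, against 15.1% of all loci. INHBB and TGFBR3 were the 2 that remained (4.26%, against 3.32% of all loci). Without si-CTRL replicate 3 or si-SAM68 replicate 2, 3 members were called (6.38%, against 5.85% and 4.29% of all loci). Without si-SAM68 replicate 1, 4 members were called (8.51%, against 4.9% of all loci). The rule with a fold change of 1.5 called 2 to 4 members, and 1301 to 1831 of the 18849 loci. The 4 came without si-CTRL replicate 2 (1831 loci), si-SAM68 replicate 1 (1463 loci) or si-SAM68 replicate 3 (1355 loci). TGF-beta response genes ranged from 3 (without si-SAM68 replicate 3) to 14 (without si-CTRL replicate 1), being 4 without si-SAM68 replicate 1 and 6 without si-CTRL replicate 3 or si-SAM68 replicate 2. BMP response genes ranged from 0 to 1 (RUNX2 without si-CTRL replicate 1, MSX1 without si-CTRL replicate 2), and other pathway components from 6 (without any 1 si-SAM68 library) to 11.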

Other observations

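In si-CTRL replicate 1, the library with the fewest reads (52625492), 26 of the 47 tested members (55.3%) had their highest value among the 3 controls, against 40.5% of all loci tested. TGFB1, SMAD3, SMURF1, ENG and SKI were among them, with SMAD3 at 6280.4 normalized reads there and at 4738 and 4262 in the other 2 controls. The whole-library median deviation from the control mean was within 0.01 on the log2 scale for all loci, and 0.05 for the members in this library. In si-CTRL replicate 2, 5 members (10.6%) were highest, against 28.4% of all loci, and the members' median deviation was -0.07. The part of these libraries in the members' values was not tested beyond leaving each out.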
